A study of Mus musculus with 6 samples.

Results

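Older rodent LINE-1 subfamilies, those with names from L1MdF to Lx, were followed in mouse embryonic fibroblasts with and without the Actb gene. They were chosen by name: rows of the repeat family L1 whose name starts with L1MdF, L1MdMus, L1MdN, L1MdV, L1_Mus, L1_Mur, L1_Rod, L1VL, L1Lx or Lx. The rule found 44 rows of 149 LINE-1 rows and of 1336 rows in all, and each row is the sum over every genomic copy of a subfamily. All 44 passed the filter on low counts. L1MdV_I and L1_Mur3, whose counts went with ribosomal RNA, were kept apart, which left 42. That these types are older than the mobile ones is background knowledge of their names, since the files hold neither ages nor sequences.

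The cells were fibroblasts of BALB/c mice, from embryos 10.5 days old, either wild type (WT, 3 libraries) or with a knockout of β-actin, labelled Actb-/- (KO, 3 libraries). Total RNA was depleted of ribosomal RNA before sequencing. The design text calls the replicates biological. The labels do not say whether they came from separate embryos or cultures, so p-values rest on the spread between these libraries, which may be partly technical. The tests below also set the error of each row partly from the other rows. A row with close replicates can therefore be tested against a wider error than its own. The rows hold no protein-coding gene, so neither the loss of Actb nor the fibroblast identity was checked here.

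LINE-1 elements are retrotransposons: their RNA encodes an RNA-binding protein and an enzyme that cuts DNA and reverse transcribes the RNA into a new site. Mouse LINE-1 evolved as a succession of subfamilies. Lx spread early in the history of murine rodents, the V, Mus and F types followed, and the A, Tf and Gf types hold the copies that can still move. Most older copies are truncated and mutated, and many lie inside genes, so that their RNA can be part of a longer transcript. In somatic cells LINE-1 promoters are usually held silent by DNA methylation and repressive histone marks. β-Actin is a cytoskeletal protein that also occurs in the nucleus, where actin is a subunit of chromatin-remodelling complexes.

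Total counts per library ran from 7708630 (WT replicate 1) to 19288620 (KO replicate 1). Ribosomal RNA took 32.4%, 84.1% and 73.7% of them in the WT libraries and 84.8%, 52.9% and 77.0% in the KO libraries, given here and below in the order of replicates 1, 2 and 3. Exact (Clopper-Pearson) 95% binomial intervals of these shares were at most 0.0661 percentage points wide and cover counting error only. The 42 rows were well covered: their median count was 1896.5 in WT replicate 2, the lowest, and 6417.5 in WT replicate 1, the highest, and the smallest count of any of them in any library was 162. Levels below are CPM after scaling of each library with the TMM factor (trimmed mean of M-values), called normalized CPM, a scale on which the bulk of repeat rows is level between libraries. They are not per length, so levels of different rows were not compared.

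Set against the other repeat rows, nearly all older LINE-1 rows lay slightly higher in KO cells, and a single one passed the test. On the TMM scale 41 of 42 had a log2 fold change above 0, where 52.3% of all 1193 tested rows did, but on the total-count scale, rRNA included, all 42 lay below 0. The median of the 42 was 0.16 (1.11 times the WT level), beside 0.012 over all rows, and single rows ran from -0.036 to 0.30. On the total-count scale the median of the 42 was -0.23 and that of all rows -0.36, so the 42 stood 0.13 above all rows there and 0.14 on the TMM scale. Scaled by TMM within the LINE class alone, 35 of 42 lay above 0, with a median of 0.073, beside 0.0019 over the 179 tested LINE rows. The 42 are among these 179, so they helped to set that scale. In bulk RNA fewer cells of a type and less RNA per cell cannot be told apart.

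L1Lx_IV was the row that passed the quasi-likelihood test of edgeR at a Benjamini-Hochberg adjusted p of 0.05 over all 1193 rows, so 1 of 42 rose and none fell. Over all rows 2.18% were called higher in KO and 3.6% lower, so the count of 1 in 42 was near this background. At an unadjusted p under 0.05 there were 16 older LINE-1 rows higher and 0 lower, against 9.56% of all rows higher and 11.3% lower. In 20 of the 42 the 3 KO libraries all lay above the 3 WT libraries on the TMM scale, and in 0 all below, where 12.4% of all rows had KO above WT and 13.4% KO below WT. Related rows can share reads, and the rule for a read that fits several of them was not stated, so the 42 may not be independent measurements. The count of calls moved with the tool. DESeq2 called 5 of the 42 higher (L1Lx_IV, L1_Mur2, L1MdF_III, L1MdF_IV and Lx3_Mus), where it called 2.51% of all rows higher. With limma-voom there were 2 (L1Lx_IV and L1_Mur2, 1.93% of all rows), and with the rRNA share as a covariate in edgeR also 2 (L1Lx_IV and Lx3_Mus, 1.76% of all rows).

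**Figure D1:**
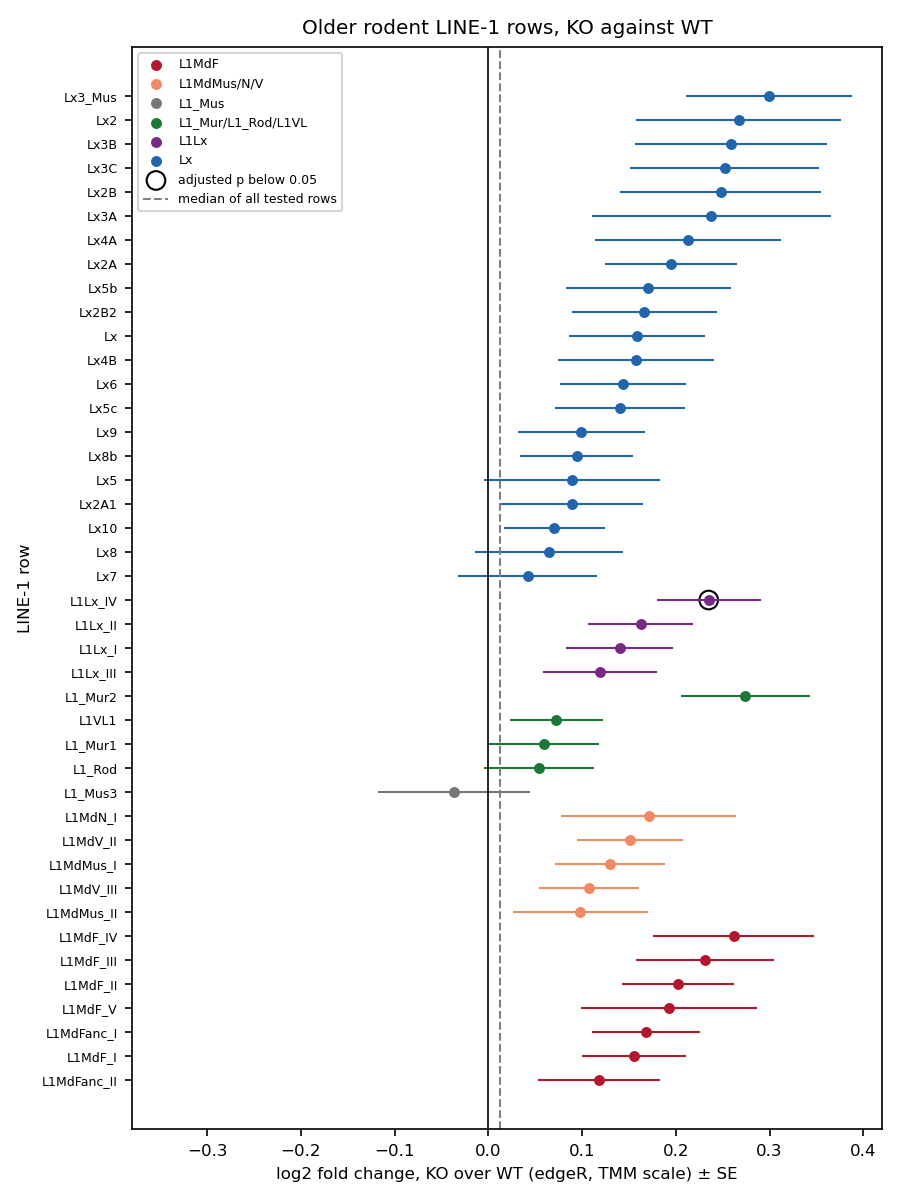
Log2 fold change of each of the 42 older LINE-1 rows, KO over WT, on the TMM scale, with bars for 1 standard error derived from the edgeR test, coloured by name group. On this scale 41 points lie above 0, L1Lx_IV (ringed) alone passes and L1_Mus3 lies below 0. On the total-count scale all 42 would lie below 0, where the median of all tested rows was -0.36.

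KO replicate 3 stood out within the knockout group. It held the highest of the 6 levels in 40 of 42 rows, against 22.9% of all rows, and KO replicate 1 was the lowest KO library in 34 of 42, against 39.6%. Without KO replicate 3 the median log2 fold change of the 42 went from 0.16 to 0.10, a drop of more than 1.5 times, with 40 of 42 above 0 and 0 called (6 at an unadjusted p under 0.05). Without KO replicate 1 it was 0.18, and 2 rows were called, L1MdF_II and L1MdF_III (2.11% of all rows were called higher). The rRNA share of KO replicate 3 lay between those of the other KO libraries.

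**Figure D2:**
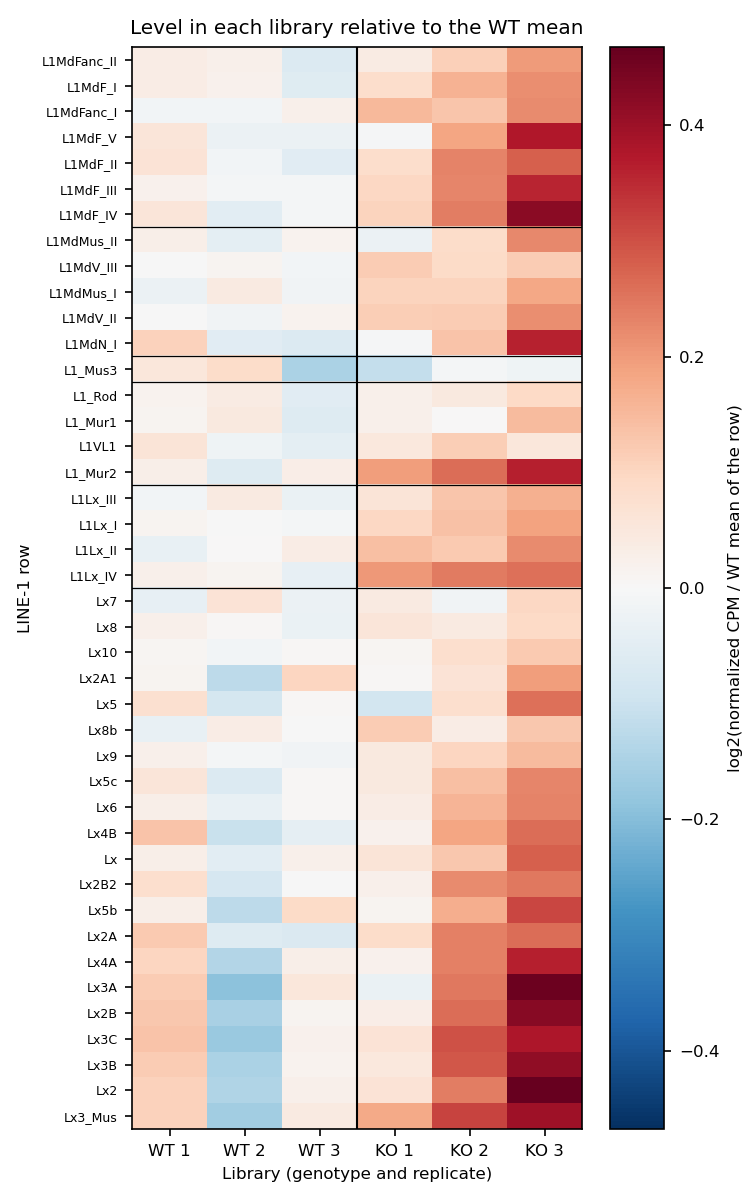
Level of each older LINE-1 row (lines) in each library (columns), as log2 of normalized CPM over the WT mean of that row on the TMM scale, with horizontal lines between name groups. The column of KO replicate 3 is the darkest red in most lines, holding the highest level in 40 of 42. The column of WT replicate 2 is bluest in most lines of Lx2 to Lx4. By total counts all 42 rows have a log2 fold change below 0, beside a median of -0.36 over all tested rows.

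Summed over the 42 rows, the level was 13166, 12699.7 and 12848 normalized CPM in the WT libraries and 13509.5, 14106 and 15056 in the KO libraries. The genotypes did not overlap, with 12905 ± 238 in WT and 14224 ± 780.0 in KO (mean ± SD, n = 3), and the KO spread was the wider. A share within LINE-1 does not rest on TMM. Of the LINE-1 counts without L1MdV_I and L1_Mur3, the 42 rows took 51.9% ± 4.65 in WT and 53.9% ± 4.21 in KO, a difference within the spread of either genotype that turned to -0.449 percentage points without WT replicate 2. That share was lowest in the libraries highest in rRNA.

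L1MC4a, L1MdA_I and L1MdA_VI, 3 LINE-1 rows outside the rule, passed the test for a dependence on the rRNA share. With these left out of the denominator as well, a choice made after seeing the data, the 42 rows took 57.7%, 56.2% and 57.1% of LINE-1 counts in the WT libraries and 57.8%, 58.9% and 60.6% in the KO libraries. The exact 95% interval was widest in WT replicate 2, from 55.95% to 56.42%, and covers counting error only. Every KO library lay above every WT library, by little: KO replicate 1 and WT replicate 1 differed by less than the WT spread, and the group values were 57.0% ± 0.773 and 59.1% ± 1.40. The difference, 2.10 percentage points, was 1.36 without KO replicate 3. LINE-1 rows outside the 42 and the young A, Tf and Gf types, mostly L1M, L1P and HAL1 types, took most of the rest. Their share ran from 34.8% in KO replicate 3 to 39.6% in WT replicate 2.

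**Figure D3:**
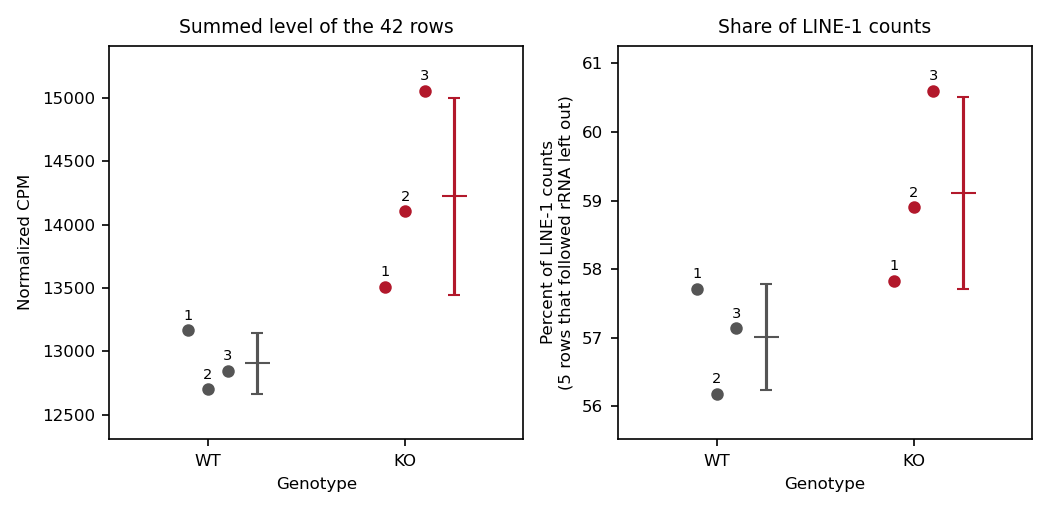
Left, summed level of the 42 older LINE-1 rows in normalized CPM on the TMM scale, and right, their percent of LINE-1 counts with the 5 rows that followed rRNA left out, both on axes that do not start at 0. Points are libraries with their replicate number and bars are mean ± SD (n = 3). In both panels the KO points lie above the WT points, with KO replicate 3 highest. By total counts all 42 rows have a log2 fold change below 0, beside a median of -0.36 over all tested rows.

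The L1Lx rows, a set of Lx-type elements numbered I to IV, varied least between replicates of the name groups, with a median coefficient of variation of 2.31% in WT and 3.44% in KO. In all 4 of them every KO library lay above every WT library on the TMM scale, against 12.4% of all rows. When total counts set the scale, all 4 rows lie below 0. L1Lx_IV was at 330.4, 327 and 316 normalized CPM in the WT libraries and 374, 384 and 388 in the KO libraries. The lowest KO value stood well above the highest WT value, and the spread within each genotype was small. Its group levels were 325 ± 7.39 in WT and 382 ± 7.31 in KO (mean ± SD, n = 3), a rise to 1.18 times the WT level (log2 fold change 0.24, SE 0.056, edgeR adjusted p = 0.0496). The call sat at the threshold. It was lost without any single library, at log2 fold changes of 0.22 to 0.25, and held in 4 of 17 alternatives, with adjusted p from 0.00777 to 0.998: DESeq2, limma-voom, the covariate for rRNA, and a filter at 50 counts on average. On the total-count scale L1Lx_IV lay at -0.14, where the median of all rows was -0.36.

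L1Lx_III, the L1Lx row with the most counts, was at 400.2, 416 and 395 in the WT libraries and 420.2, 441 and 453 in the KO libraries and did not pass (log2 fold change 0.12, SE 0.060, edgeR adjusted p = 0.312). Levels of L1Lx_I were 389.8 ± 3.10 in WT and 429.6 ± 13.7 in KO, those of L1Lx_II 225 ± 5.30 in WT and 252 ± 9.32 in KO, without either passing (edgeR adjusted p = 0.210 and 0.146). The fold changes of these 3 rows were smaller than that of L1Lx_IV, a difference that was not tested.

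The 7 F-type rows, L1MdF_I to L1MdF_V and the ancestral L1MdFanc_I and L1MdFanc_II, had a median log2 fold change of 0.19 on the TMM scale, and none passed. In 6 of 7 all KO libraries lay above all WT libraries on that scale, against 12.4% of all rows. F is one of the promoter types by which mouse LINE-1 lineages are told apart. L1MdF_IV, with the largest fold change of the group, was at 318, 295 and 303 in the WT libraries and 328, 361 and 409 in the KO libraries. KO replicate 3 was the highest library, and KO replicate 1 lay close to the highest WT library. It did not pass (log2 fold change 0.26, SE 0.086, edgeR adjusted p = 0.126), passed in 1 of 17 alternatives, with adjusted p from 0.0260 to 0.998, the one being DESeq2, and was 0.17 without KO replicate 3 and -0.13 by total counts.

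L1MdF_II had the smallest p of the F rows, at 86.8, 82.3 and 80.1 normalized CPM in the WT libraries and 88.0, 97.6 and 101 in the KO libraries. The gap between KO replicate 1 and WT replicate 1 was narrow. It did not pass (log2 fold change 0.20, SE 0.060, edgeR adjusted p = 0.0952) but passed without KO replicate 1, at 0.25. L1MdF_III, named because it passed with DESeq2 and without KO replicate 1, was steady in WT and spread out in KO, at 236, 231 and 231 in the WT libraries and 248, 272 and 298 in the KO libraries. L1MdF_V was the F row in which the genotypes overlapped, at 279, 263 and 264 in the WT libraries and 268, 305 and 348 in the KO libraries: KO replicate 1 lay below WT replicate 1.

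The ancestral rows had less spread between KO libraries than L1MdF_III to L1MdF_V. L1MdFanc_I was at 354, 355 and 364 in the WT libraries and 397, 392 and 417 in the KO libraries, with a gap between the genotypes wider than the WT spread, and did not pass (log2 fold change 0.17, SE 0.058, edgeR adjusted p = 0.138). L1MdFanc_II had the lowest fold change of the F rows, at 267 ± 10.1 in WT and 289.9 ± 16.4 in KO (log2 fold change 0.12, SE 0.065, edgeR adjusted p = 0.361), and at 0.070 without KO replicate 3. By total counts the 2 rows lay at -0.21 and -0.26.

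Among the V, Mus and N types, without L1MdV_I, the 5 rows had log2 fold changes of 0.10 to 0.17 on the TMM scale, and none passed. In 3 of 5 every KO library lay above every WT library, against 12.4% of all rows. L1MdV_II, with the smallest p, was at 265, 262 and 268 in the WT libraries and 288, 288 and 308 in the KO libraries. The KO libraries were all higher by a margin wider than the WT spread (log2 fold change 0.15, SE 0.057, edgeR adjusted p = 0.169). L1MdV_III was similarly tight, at 333 ± 2.77 and 359 ± 4.29 (log2 fold change 0.11, SE 0.053, edgeR adjusted p = 0.298). L1MdMus_I, the row of this set with the most counts, was at 388 ± 10.2 in WT and 425 ± 13.0 in KO (log2 fold change 0.13, SE 0.059, edgeR adjusted p = 0.256).

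L1MdMus_II and L1MdN_I overlapped between the genotypes. L1MdN_I was at 52.9, 47.3 and 46.9 in the WT libraries and 48.9, 53.7 and 63.0 in the KO libraries: KO replicate 3 was highest and WT replicate 1 lay above KO replicate 1, and its fold change, the highest of the set, had the widest error of the 5 (log2 fold change 0.17, SE 0.093, edgeR adjusted p = 0.356). Value and rank rested on KO replicate 3: without it L1MdN_I was at 0.061, below L1MdV_II (0.11) and L1MdMus_I (0.10). L1MdMus_II had the lowest fold change (log2 fold change 0.10, SE 0.072, edgeR adjusted p = 0.486), at 0.026 without KO replicate 3 and 0.15 without KO replicate 1. By total counts L1MdV_II, L1MdMus_I, L1MdN_I and L1MdMus_II lay at -0.23, -0.23, -0.25 and -0.28.

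Rows named for the murine and rodent lineages divided into L1_Mur2 and the rest. L1_Mur2 was at 478, 449 and 479 normalized CPM in the WT libraries and 537, 561 and 603 in the KO libraries. All KO libraries lay above all WT libraries, and the smallest gap exceeded the WT spread. Its group levels were 469 ± 17.1 in WT and 567 ± 33.2 in KO, and it just missed the threshold (log2 fold change 0.27, SE 0.069, edgeR adjusted p = 0.0590). It passed in 2 of 17 alternatives, with adjusted p from 0.00227 to 0.998, those with DESeq2 and limma-voom, and lay at -0.11 by total counts.

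The other rows of this set had fold changes near 0. L1_Rod was at 399, 405 and 380.2 in the WT libraries and 401, 407 and 421 in the KO libraries, with the genotypes overlapping (log2 fold change 0.054, SE 0.059, edgeR adjusted p = 0.662), at 0.030 without KO replicate 3, and by TMM within the LINE class alone it lay at -0.028. L1_Mur1 and L1VL1 had log2 fold changes of 0.059 and 0.072, also with overlap. L1_Mus3, the one L1_Mus row, was the only member below 0 on the TMM scale, at 22.3, 22.8 and 19.3 in the WT libraries and 19.8, 21.3 and 21.2 in the KO libraries. WT replicate 3 was its lowest library and WT replicate 2 its highest, and it had the fewest counts of the 42 (log2 fold change -0.036, SE 0.081, edgeR adjusted p = 0.856). By total counts it lay at -0.41.

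The 21 Lx rows all had log2 fold changes above 0 on the TMM scale (0.042 to 0.30, median 0.16) and none passed; all 21 lay below 0 by total counts. They showed different patterns by number, a split made after the values were seen. The 11 rows Lx2 to Lx4 had a median of 0.24 and the 10 others, Lx and Lx5 to Lx10, of 0.10. These medians were 0.15 and 0.071 without KO replicate 3, and 0.16 and 0.099 without WT replicate 2. The Lx2 to Lx4 rows also varied more between replicates, with a median coefficient of variation of 8.70% in WT and 11.0% in KO, against 2.68% and 5.12% in the others. KO replicate 3 was highest and KO replicate 1 the lowest KO library in 11 of these 11, and WT replicate 2 was the lowest WT library in 10. Over all rows these shares were 22.9%, 39.6% and 40%. The KO order was largely shared by the other members. In the 10 other Lx rows the 3 counts were 10, 7 and 6, and in the 21 members with other names 19, 16 and 6.

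Lx3_Mus had the largest fold change of all 42 rows. It was at 255, 211 and 244 normalized CPM in the WT libraries and 268, 294 and 311 in the KO libraries. Every KO library lay above every WT library, which held in 1 of the 11 Lx2 to Lx4 rows and in 12.4% of all rows. The gap between WT replicate 1 and KO replicate 1 was smaller than the spread within either genotype. Group levels were 236 ± 22.6 in WT and 291 ± 22.1 in KO (log2 fold change 0.30, SE 0.088, edgeR adjusted p = 0.0948). It passed in 2 of 17 alternatives, those with DESeq2 and the rRNA covariate, with adjusted p from 0.0101 to 0.998. By total counts it lay at -0.12. The rank rested on WT replicate 2: without that library Lx3_Mus was at 0.22, below L1_Mur2 and L1Lx_IV, each at 0.24.

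Within each genotype the summed Lx2 to Lx4 level was thus lowest in WT replicate 2 and KO replicate 1, the libraries with the most rRNA. The 11 rows together were at 2153, 1824 and 2039.9 normalized CPM in the WT libraries and 2076, 2366 and 2585 in the KO libraries, and WT replicate 1 lay above KO replicate 1. KO replicate 1 lay above WT replicate 3, and KO replicate 3, with more rRNA than KO replicate 2, was the highest. In the fit with the rRNA share as a covariate, the rRNA coefficient passed in 0 of the 42 rows, against 1.34% of all rows. L1_Mur3 and L1MdV_I were kept apart for following rRNA, so their coefficients are given below as a description. Among the 42 the lowest slope was -0.18 per doubling of the share, in Lx3C (SE 0.085, edgeR adjusted p = 0.804). In all 11 Lx2 to Lx4 rows the slope lay below 0, from -0.021 in Lx2A1 to that of Lx3C, and none passed. The median slope of the 42 was -0.038. With that covariate the median KO effect of the 42 was 0.16, and that of the 11 Lx2 to Lx4 rows was 0.28, beside 0.24 without it.

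Lx8 and Lx7, the Lx rows with the most counts, had fold changes near 0. Lx8 was at 1615, 1592 and 1554 in the WT libraries and 1651, 1636 and 1692 in the KO libraries. Its KO libraries all lay above its WT libraries, but by a margin that was small beside the fitted error (log2 fold change 0.065, SE 0.079, edgeR adjusted p = 0.698). Lx7 had the lowest fold change of the Lx rows, at 882, 946 and 889 in the WT libraries and 932, 896 and 968 in the KO libraries, with overlap (log2 fold change 0.042, SE 0.074, edgeR adjusted p = 0.805), and it ran from 0.0093 to 0.072 without single libraries. Scaled within the LINE class, both lay below 0, at -0.017 and -0.040, and by total counts at -0.32 and -0.32.

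L1_Mur3 and L1MdV_I behaved unlike the other 42 rows. L1_Mur3 was at 2205, 29344 and 12317 normalized CPM in the WT libraries and 28763, 4124 and 13515 in the KO libraries, a 13.3-fold range. L1MdV_I was at 410.4, 2490.3 and 1113 in the WT libraries and 2352, 551 and 1172 in the KO libraries, a 6.07-fold range. Among the other 42 the highest library was 1.09 to 1.57 times the lowest. Both rows were highest in WT replicate 2 and KO replicate 1 and lowest in WT replicate 1 and KO replicate 2, the libraries with the most and the least rRNA, and the genotypes overlapped.

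Set against rRNA itself, L1_Mur3 was nearly level. It had 21.3, 14.965 and 15.6 counts per 1000 rRNA counts in the WT libraries and 14.3, 17.1 and 15.2 in the KO libraries, a 1.48-fold range. On the same measure L1MdV_I ranged 3.37-fold and the other 42 rows, summed, 19.6-fold. In the covariate fit their slopes were 2.77 (SE 0.32) and 1.89 (SE 0.28) on the log2 scale per doubling of the rRNA share. These rows were set apart for this pattern, so its values are a description without a test. The source of their reads was not tested.

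Neither row passed the test between genotypes: L1_Mur3 had a log2 fold change of 0.081 (SE 0.88, edgeR adjusted p = 0.970) and L1MdV_I of 0.022 (SE 0.65, edgeR adjusted p = 0.992). With standard errors this wide the comparison has little power. L1_Mur3 held 8.47% of all LINE-1 counts in WT replicate 1 and 49.8% in WT replicate 2, the libraries with the least and nearly the most rRNA. The rows whose log2 levels were most like L1_Mur3 over the 6 libraries were LSU-rRNA_Hsa, RLTR25A and L1MC4a, and for L1MdV_I they were L1MdA_VI, B4 and L1MdA_I. As a description, Pearson's r was 0.998 or more in each case, over libraries that differ most in rRNA.

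**Figure D4:**
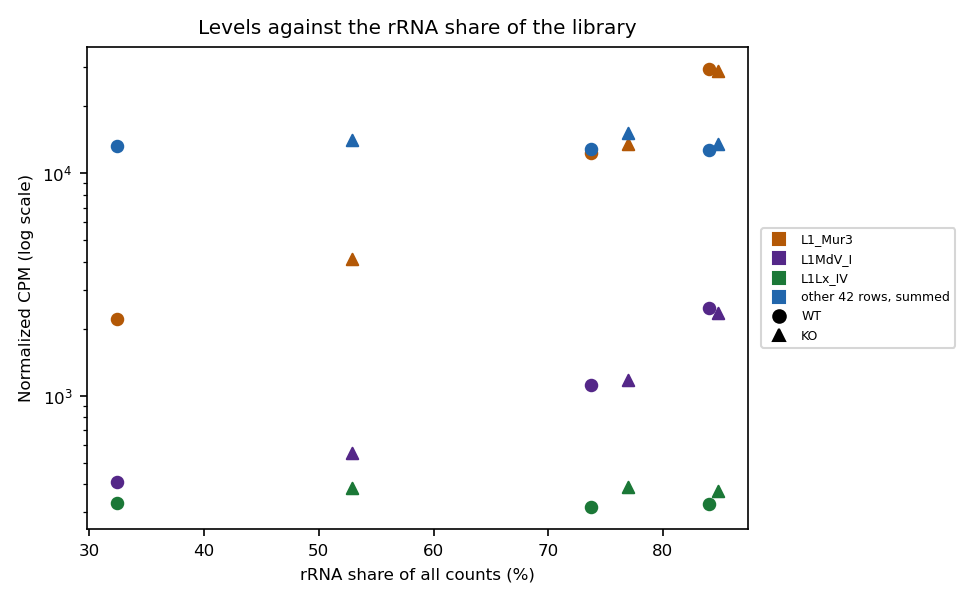
Normalized CPM (log axis) of L1_Mur3, L1MdV_I, L1Lx_IV and the sum of the 42 other older LINE-1 rows against the rRNA share of all counts in each library, with circles for WT and triangles for KO. L1_Mur3 climbs from 2205 to 29344 and L1MdV_I from 410.4 to 2490.3, whereas L1Lx_IV stays between 316 and 388.

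For the rest of LINE-1, the 12 rows of the young A, Tf and Gf types had a median log2 fold change of 0.13 and the 93 remaining rows, mostly L1M, L1P and HAL1 types shared with other mammals, of 0.028, beside 0.16 for the 42. The sets are not quite alike: the young rows include L1MdA_I and L1MdA_VI and the remaining rows L1MC4a, which followed rRNA. The 42 leave out L1MdV_I and L1_Mur3, and with these the median over 44 rows was 0.15. On the TMM scale 1 of the young rows rose, L1MdA_V, and 1 of the remaining rows, L1ME3B, with none lower in either list. Over all rows 2.18% were called higher and 3.6% lower. In 10 of the 93 and 3 of the 12 young rows all KO libraries lay above all WT libraries, against 20 of the 42 and 12.4% of all rows. All KO libraries lay below in 5 of the 93, 1 of the 12 and 0 of the 42, against 13.4% of all rows. The order of the young rows and the 42 was not stable: in 7 of 17 alternatives the median of the young rows was the higher, for example 0.17 against 0.15 with limma-voom and 0.19 against 0.17 without WT replicate 1. By total counts the 3 medians were -0.23, -0.34 and -0.23. A difference between these lists was not tested.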

How the data were processed

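RNA of 6 mouse embryonic fibroblast libraries, 3 WT and 3 KO, was compared, with group and replicate number from the sample titles. The authors deposited estimated counts (fractional counts in the file names) per repeat row, without normalization, all of them whole numbers. The submitters' processing notes name FastQC 0.11.5, Trimmomatic, Bowtie2 and the builds mm10 and GRCm38. The repeat counter, its annotation, its use of strand and its rule for reads that fit several rows: not given in the sources used here.

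All 1336 rows were fitted in R 4.3.3 with edgeR 4.0.16 (filterByExpr, which kept 1193, TMM, quasi-likelihood test, Benjamini-Hochberg adjustment at 0.05), and the procedure was tested on simulated data. The test gives no standard error, so each SE is the absolute log2 fold change or slope divided by the square root of its F statistic. Effective library sizes gave normalized CPM, and TMM factors ran from 0.423 to 3.13. Depth, at least 162 counts per row and library, limits precision less than the spread between replicates: chi-square over degrees of freedom between replicates was 3.37 to 12.7 over the 42 rows. The members and lists were chosen with earlier results of these data known. Rows named by rule were those called and, in each name group, those with the most counts, the smallest p and the highest and lowest fold change, plus L1MdV_I and L1_Mur3. L1Lx_I, L1Lx_II, L1MdF_III, L1MdF_V, L1MdV_III, L1_Mur1, L1VL1 and Lx3C were described beside them, outside that rule. Alternatives were other scalings, filters and row sets, a replicate block, an rRNA covariate, DESeq2 1.42.0, limma-voom (limma 3.58.1) and fewer libraries.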

Additional observations from a re-analysis of the deposited data

How the results depend on the processing

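The count of called older LINE-1 rows, 1 as reported, was 0 with DESeq2 size factors, total counts, no filter, structural RNA rows left out, LINE rows only, the replicate block, and 4 libraries without WT replicate 1 and KO replicate 2. It was 2 with the rRNA covariate, 5 with DESeq2 and 2 with limma-voom, and 0 to 2 without single libraries, while no setting called a fall. Replicate numbers did not serve to pair libraries, since nothing in the labels ties them and deviations of same-numbered libraries correlated at -0.44, -0.39 and 0.02; with the replicate block 0 of 42 rows passed, 6 at an unadjusted p under 0.05, and 10 higher and 14 lower of all rows (26 and 43 as reported). Total counts called 0 of all rows in edgeR, with 3 at an unadjusted p under 0.05. The median log2 fold change was -0.23 by total counts (-0.36 over all rows), 0.073 with LINE rows only and 0.10 to 0.18 without single libraries. The cause of these changes was not tested. By total counts L1_Mus3 lay at -0.41, further below 0 than as reported, and the following turned to below 0: L1Lx_IV (-0.14), L1_Mur2 (-0.11), L1_Rod (-0.32), L1Lx_III (-0.23), L1MdFanc_I (-0.21), L1MdF_II (-0.17), L1MdF_IV (-0.13), L1MdFanc_II (-0.26), L1MdMus_I (-0.23), L1MdV_II (-0.23), L1MdN_I (-0.25), L1MdMus_II (-0.28), Lx8 (-0.32), Lx3_Mus (-0.12), Lx7 (-0.32) and L1MdV_I (-0.076). With LINE rows only so did L1_Rod (-0.028), Lx8 (-0.017), Lx7 (-0.040) and L1MdV_I (-0.052). With the rRNA covariate L1MdV_I and L1_Mur3 lay at -0.35 and -0.37, and with 4 libraries L1MdV_I at -0.020. Without single libraries L1_Mus3 ran from -0.10 to 0.0052, where only the fit without WT replicate 1 lay above 0, L1MdV_I from -0.64 to 0.83 and L1_Mur3 from -0.73 to 1.09. The KO minus WT share of LINE-1 counts ran from -0.449 to 4.41 percentage points without single libraries and was 2.10 with the 5 rows that followed rRNA left out, an alternative chosen after seeing the data. Without single libraries that second difference ran from 1.36 to 2.74. Of 306 values of single rows under alternatives, 258 kept their direction and side of the threshold, 30 turned direction, 12 kept it and lost the call and 6 gained a call. The call of L1Lx_IV was lost in 13 of 17, the one with total counts turning direction. Depth limits L1_Mus3 most, the row with the fewest counts.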

Other observations

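LX3, a LINE-1 row spelled in capitals and so outside the rule, lay the other way from the Lx rows, at 46.0, 54.9 and 56.4 normalized CPM in the WT libraries and 50.7, 46.9 and 43.1 in the KO libraries. It did not pass (log2 fold change -0.16, SE 0.090, edgeR adjusted p = 0.379), and the genotypes overlapped, with KO replicate 3 the lowest and WT replicate 3 the highest library. MusHAL1, a HAL1-type element of the mouse, lay above WT in every KO library on the TMM scale, at 23.2, 22.2 and 22.3 in the WT libraries and 25.6, 26.4 and 27.5 in the KO libraries, and did not pass (log2 fold change 0.23, SE 0.061, edgeR adjusted p = 0.0678). Both rows were singled out after their values were seen.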
